A study of Mus musculus with 2 samples.

Results

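The forkhead genes are a family of transcription factor genes whose names run from Foxa to Foxs in the mouse. They were taken from the array by gene name, as every non-control probe named Fox with a letter from A to S and a number. Foxf1, Foxf1a, Foxf2 and Foxl1 were left out by the same rule. This gave 41 genes with 54 probes, of 31870 genes on the array. A gene counted as expressed when its probe was well above background on both arrays in 1 group, which held for 26 of the 41 (63.4%) against 64.3% of all genes on the array.

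Embryonic ureters (NMRI mice, E14.5) were hybridised to 2 dual-colour Agilent arrays, on which a control RNA met an RNA labelled Gata2cKO. The control embryos had 2 wild-type Tbx18 alleles and so no Cre, 1 floxed Gata2 allele and a further Gata2 allele that the label does not specify. The Gata2cKO embryos had Cre recombinase in 1 Tbx18 allele, which is active in the mesenchyme around the ureter, and floxed Gata2 on both chromosomes. Array 1 held female RNA with Gata2cKO in Alexa Fluor 647, and array 2 held male RNA with Gata2cKO in Alexa Fluor 555, so the sex of the embryos and the dye orientation changed together and cannot be told apart. The labels do not say how many embryos gave each RNA or that the arrays stand for separate litters. A p-value here therefore cannot be taken to measure the spread between embryos or litters. It sets the mean of these 2 arrays against a spread drawn from them and, more heavily, from all genes tested (1 residual and 4.68 prior degrees of freedom). Cre and the altered Tbx18 allele were present in the Gata2cKO embryos alone, and their effects cannot be told apart from loss of Gata2.

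The targeted gene did not check the label. Gata2 had log2 ratios of Gata2cKO over control of 0.33 on array 1 and 0.54 on array 2 (mean 0.44 ± 0.153, SD, n = 2; limma adjusted p = 0.410), and which part of Gata2 is deleted is not stated. Tbx18, whose allele carries Cre, was at 0.65 and 0.15 (adjusted p = 0.660 by limma). Directions here are therefore those of the RNA labelled Gata2cKO. The median spot signal lay between 428.1 and 754 in the 4 channels, and 66% to 69.4% of spots were well above background. All 14 urothelial and all 9 smooth muscle markers of the lists used here were measured. The tissue was whole, so fewer cells of a type and less RNA per cell cannot be told apart.

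Forkhead proteins bind DNA through a shared winged-helix domain. FOXA proteins open closed chromatin in epithelia, FOXC and FOXD proteins act in kidney and ureter mesenchyme, and FOXO proteins are held in the cytoplasm when AKT phosphorylates them, so their RNA level does not report their activity. FOXM1 drives mitotic genes, FOXJ1 drives motile cilia, and FOXP and FOXK proteins work largely as repressors with chromatin partners.

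No forkhead gene passed the test between the genotypes. Of the 26 measured members, 0 reached an adjusted p of 0.05 by limma, against 0.0878% of all 20507 genes tested, and 0 were past 1.5-fold in a shared direction, against 0.712%. At an unadjusted p under 0.05 there were 4 members (Foxp2, Foxi1, Foxd3 and Foxo3), beside 7.17% of all genes. Foxd3 was well above background in the control RNAs alone, and with the stricter filter, which leaves it out, the count was 3. With a trended and robust variance 1 member, Foxp2, passed. The member ratios ran from -0.49 to 0.43 on the log2 scale, and for 22 members the 95% interval lay inside 1.5-fold in both directions. The other 4 were again Foxp2, Foxi1, Foxo3 and Foxd3.

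The directions were mixed. Between the arrays 9 members were higher in the RNA labelled Gata2cKO on both (27% of all genes), 8 lower on both (26.2%), and 9 had opposite signs. Thus 17 of 26 shared a sign (53.2% of all genes). The same shares over all genes stand beside the direction counts of the gene lists below. The median over the 26 was -0.0381, with 0.0443 on array 1 and -0.0423 on array 2, beside 0.00284 over all genes tested. The signals of the 2 control RNAs did not overlap those of the 2 Gata2cKO RNAs for 12 members, against 38.5% of all genes.

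**Figure D1:**
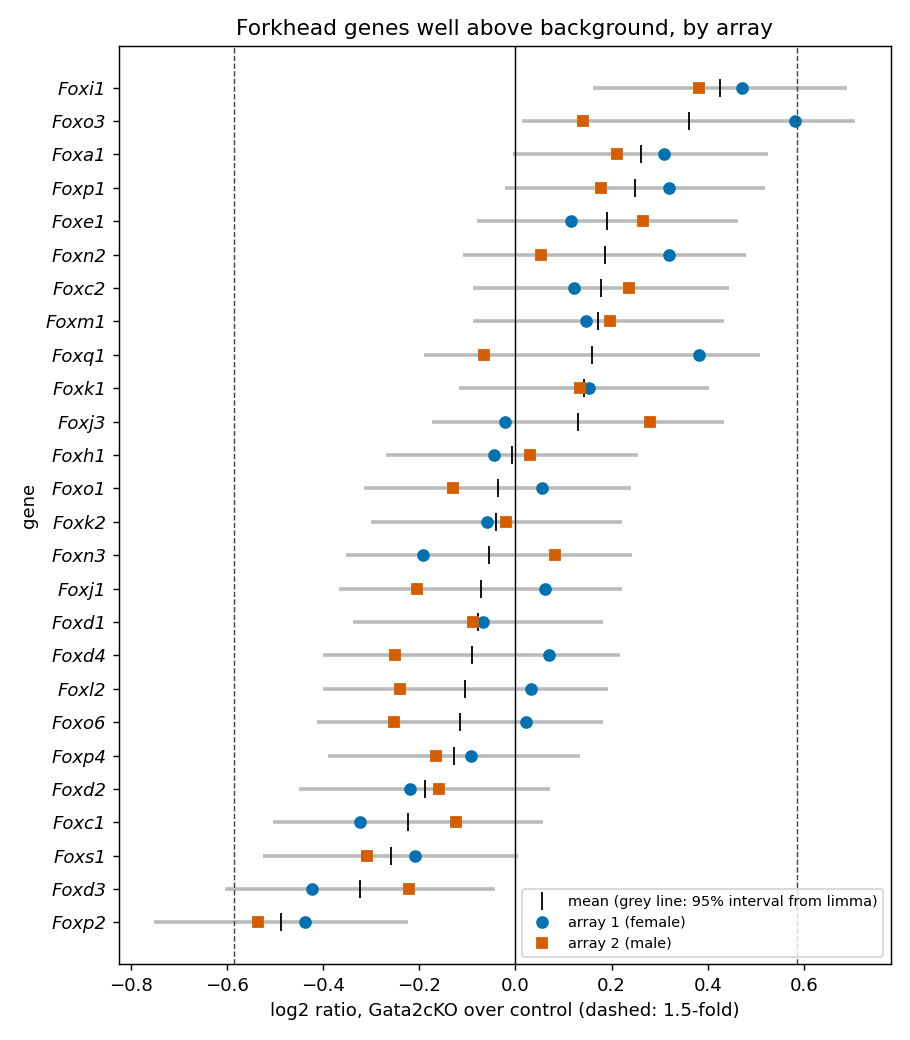
Log2 ratio of Gata2cKO over control (x axis) for the 26 forkhead genes well above background (y axis, by mean). Circles are array 1 (female), squares array 2 (male), bars the mean, and grey lines limma's 95% interval. No gene lies past the dashed 1.5-fold lines on both arrays, and Foxp2 and Foxi1 lie at the ends.

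**Figure D2:**
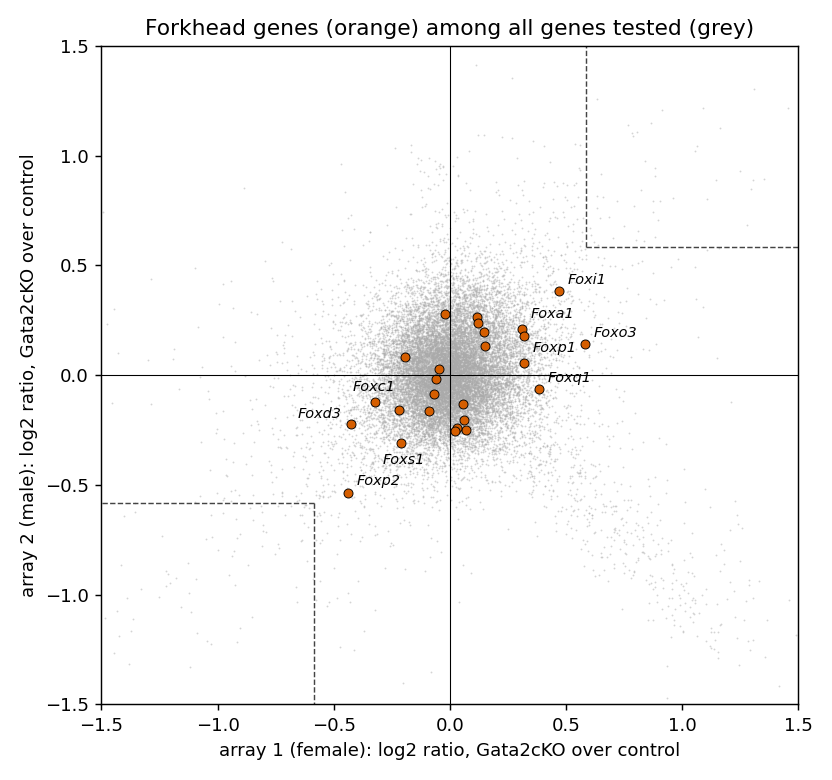
Log2 ratio on array 1 (x axis) against array 2 (y axis) for the 26 forkhead genes (orange) and all 20507 genes tested (grey), of which 42 lie outside the plotted range. The dashed corners mark 1.5-fold in the same direction on both arrays, and they hold no forkhead gene.

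The FOXP genes held the lowest ratio of the family. Foxp2 encodes a repressor best known from the brain and the lung. It was read by 2 probes on chromosome 6, and the 60 bases of 1 of them are spread over 1172 genomic bases (mm9, 15363873 to 15365044, plus strand). The Foxp1 gene was read by 3 probes. Shown are the probes of both genes with an open reading frame that are spread over a longer genomic stretch or end in the stop codon. For Foxp1, 1 has its 60 bases spread over 4338 genomic bases of the same chromosome (98885382 to 98889719, minus strand). Another ends in the stop codon, in capitals (98880084 to 98880143, minus strand). A script found a reading frame open through all 3 sequences.
Foxp2 junction probe: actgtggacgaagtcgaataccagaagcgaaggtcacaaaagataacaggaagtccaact
Foxp1 junction probe: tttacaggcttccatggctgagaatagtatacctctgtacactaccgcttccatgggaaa
Foxp1 stop codon probe: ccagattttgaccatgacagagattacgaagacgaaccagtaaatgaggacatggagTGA

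With its junction probe Foxp2 had a log2 signal of 10.85 and 10.87 in the control RNAs of arrays 1 and 2, and of 10.41 and 10.33 in the RNAs labelled Gata2cKO. Both Gata2cKO values lay below both control values. The log2 ratios were -0.44 and -0.54 (mean -0.49 ± 0.0690, SD, n = 2; 95% interval -0.75 to -0.22; limma adjusted p = 0.297), a level 1.40-fold lower. The other Foxp2 probe, on the same chromosome from 15391821 to 15391880, gave -0.58 and -0.36. The authors' deposited table gave -0.50 and -0.53 for the junction probe. Foxp2 was the only member that passed under any setting, at an adjusted p of 0.0452 with limma's trended and robust variance, under which 375 genes passed in all. Its adjusted p over the 9 alternative fits ran from that value to 1.

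Foxp1, a close relative expressed in many tissues, gave 0.32 and 0.18 with its stop codon probe (mean 0.25 ± 0.0996, SD, n = 2; limma adjusted p = 0.723). Its log2 signal was 13.93 and 14.16 in the controls and 14.25 and 14.34 in the RNAs labelled Gata2cKO, so the groups did not overlap. The other probes did not share this direction. The junction probe gave 0.10 and -0.02, and the probe farthest upstream gave -0.18 and -0.06. In the authors' deposited table the stop codon probe was at -0.49 and -0.66, the opposite direction.

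Foxp4, the third measured FOXP gene, was at -0.09 and -0.16 (mean -0.13; adjusted p = 0.880 by limma). A second probe that shares 54 bases with the first gave -0.13 and -0.11. Foxp3, the factor of regulatory T cells, was not well above background. Of the 18 listed corepressor partners of FOXP and FOXK proteins, 17 were measured and 0 passed, with 5 higher and 4 lower in both hybridisations. The median was -0.00699, and 0.11 in the authors' deposited table. The largest ratios of 1 sign were those of the corepressor gene Ctbp2 (0.35 and 0.19) and of Sap30 (-0.39 and -0.19), which encodes a subunit of the SIN3 complex. Foxk1 and Foxk2, which bind SIN3 proteins, were at 0.14 ± 0.0134 and -0.04 ± 0.0283 (SD, n = 2). Foxk1 was the member on which the arrays differed least, at 0.15 and 0.13, with an interval of -0.12 to 0.40.

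**Figure D3:**
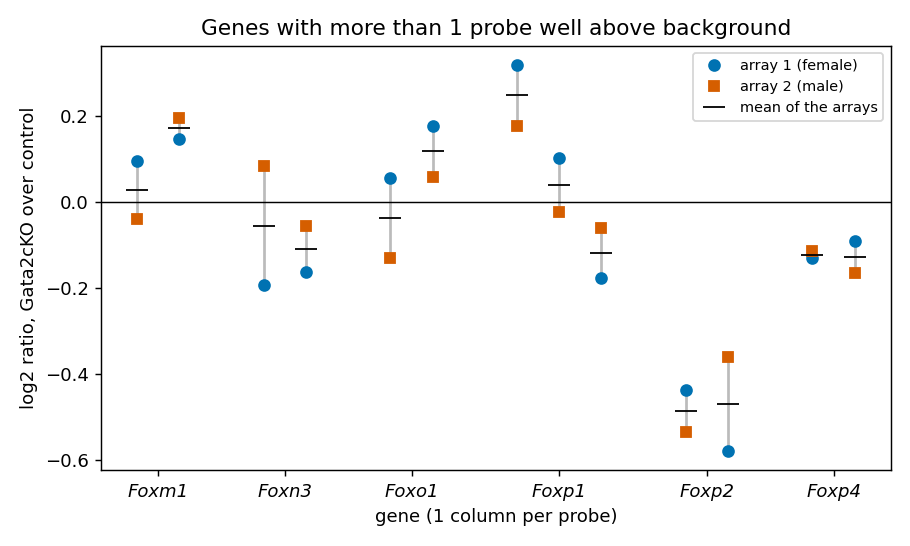
Log2 ratio of Gata2cKO over control (y axis) for each probe of the 6 forkhead genes with more than 1 probe well above background, ordered by position within a gene. Circles are array 1, squares array 2 and bars their mean. Both Foxp2 probes lie below -0.3 on both arrays, while the 3 Foxp1 probes lie on both sides of 0.

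Foxi1 had the highest ratio. It encodes the master regulator of the acid-secreting intercalated cells of the kidney collecting duct. Its probe lies on chromosome 11 from 34104352 to 34104411 (mm9). The log2 signal was 8.88 and 8.91 in the controls and 9.35 and 9.29 in the RNAs labelled Gata2cKO, and the groups did not overlap. The ratios were 0.47 and 0.38 (mean 0.43 ± 0.0628, SD, n = 2; 95% interval 0.16 to 0.69; limma adjusted p = 0.375), a level 1.34-fold higher. The authors' deposited table had it at -0.42 and -0.34, the opposite direction on both arrays. Foxi2 and Foxi3 were not well above background.

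Foxa1, the FOXA gene of the urothelium, the epithelium that lines the ureter, was at 0.31 and 0.21 (mean 0.26 ± 0.0688, SD, n = 2; 95% interval -0.00405 to 0.53; limma adjusted p = 0.700). Its log2 signal was 14.77 and 15.19 in the controls and 15.08 and 15.40 in the RNAs labelled Gata2cKO, so the female Gata2cKO value lay below the male control value. Beside it, 7 of the 14 urothelial markers were higher in both hybridisations, 0 were lower in both, and 7 had opposite signs. Their median was 0.16, with 0.28 on array 1 and 0.06 on array 2, and 0 passed. The uroplakin gene Upk1b was at 0.37 and 0.28 and Cdh1, which encodes E-cadherin, at 0.37 and 0.19. Among those of opposite sign, Upk2 was at 0.56 and -0.14 and Epcam at -0.22 and 0.12. The summed signal of the 14 was 223700 and 257800 in the controls and 249700 and 272800 in the RNAs labelled Gata2cKO. The part of these markers in the Foxa1 value was not tested. Both turned in the authors' deposited table, Foxa1 to a mean of -0.28 and the marker median to -0.19. Foxa2 and Foxa3, which act mainly in endoderm, were not well above background. Foxq1, an epithelial forkhead gene known from hair and stomach, was at 0.38 and -0.07 (adjusted p = 0.896 by limma).

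Foxc1 and Foxc2, a pair whose mutation causes duplex kidneys and ureters, went apart: Foxc1 was at -0.32 and -0.12 (mean -0.22 ± 0.142, SD, n = 2; limma adjusted p = 0.766) and Foxc2 at 0.12 and 0.24 (mean 0.18 ± 0.0809, SD, n = 2; limma adjusted p = 0.807). The log2 signal of Foxc1 was 13.08 and 12.88 in the controls and 12.75 and 12.76 in the RNAs labelled Gata2cKO. That of Foxc2 was 15.23 and 15.19 in the controls and 15.35 and 15.43 in the RNAs labelled Gata2cKO. For neither gene did the groups overlap, and the difference between the genes was not tested.

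Foxd1, which marks the stromal progenitors of the kidney, was at -0.07 and -0.09 (mean -0.08 ± 0.0153, SD, n = 2). Its 95% interval of -0.34 to 0.18 lay inside 1.5-fold in both directions. The interval rests on 2 arrays and a spread drawn largely from all genes, so it does not exclude such a difference between the genotypes. The mean was 0.0749 in the authors' deposited table. Foxd2, which is expressed in kidney mesenchyme, was at -0.22 and -0.16 (mean -0.19, interval -0.45 to 0.07). Of 13 genes listed for the stromal domain of Foxd1, all were measured, 5 were higher and 4 lower on both arrays, and the median was 0.07, which was 0.28 in the authors' deposited table and 0.00894 with median centring. Alx1, a homeobox gene of the list, rose by a mean of 1.31 (adjusted p = 0.0380 by limma) and was the only one to pass, though not with median centring or in the authors' deposited table. The list was chosen with earlier results of these data known, so this pass says nothing about the list as a whole. The 6 markers of nephron progenitors, the cells beside that stroma, included 4 that were higher in both hybridisations and 1 that was lower. Their median was 0.20 and 0 passed, with Sall1 at 0.46 and 0.71 and Six2 at 0.23 and 1.09. That median was -0.09 in the authors' deposited table, and with a trended and robust variance 1 of the 6 passed.

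Foxs1, known from pericytes and the smooth muscle of vessels, was at -0.21 and -0.31 (mean -0.26 ± 0.0700, SD, n = 2; 95% interval -0.52 to 0.00566; limma adjusted p = 0.701). Its log2 signal was 9.47 and 9.41 in the controls and 9.26 and 9.10 in the RNAs labelled Gata2cKO, and the groups did not overlap. Smooth muscle markers were lower in the same RNAs, 8 of 9 in both hybridisations. Their median was -0.69 and 0 passed (Myh11, a smooth muscle myosin gene, at a mean of -1.13 with adjusted p = 0.0509, and the actin gene Actg2 at -1.13 with adjusted p = 0.0532, both by limma). With a trended and robust variance 5 of the 9 passed, with processed signals 4 and with no detection filter 3. The count was 2 with a normexp offset of 0 or the stricter filter, and 1 over the mean of probes. It was 0 in the other fits, and the median was -1.16 in the authors' deposited table. Their summed signal was 77320 and 81570 in the controls and 59170 and 55770 in the RNAs labelled Gata2cKO. Of the 8 endothelial markers, 1 was higher and 4 were lower on both arrays (median -0.0954, or 0.18 in the authors' deposited table), with 0 that passed, Plvap at -0.41 and -0.21 and Cldn5 at -0.20 and -0.18. The part of these cells in the Foxs1 value was not tested.

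Foxd3, a neural crest factor kept on in early glia, was well above background in both control RNAs and in neither RNA labelled Gata2cKO. The log2 signal was 7.63 and 7.46 in the controls and 7.20 and 7.24 in the other RNAs. With the dim group set at the lowest signal well above background where that was higher, the control level came out 1.23-fold higher. The measured difference was 1.25-fold (ratios -0.42 and -0.22, mean -0.32, limma adjusted p = 0.622). On array 2 the Gata2cKO signal of 7.24 lay above that lowest signal (7.04) and was left as measured. The 1.23-fold value is therefore not a firm lower bound, and the ratios compare with a signal not well above background. Markers of neurons and glia were lower in the same RNAs, 10 of 12 in both hybridisations, and their median was -0.76. The neuronal filament gene Prph fell (-1.38 and -1.32; adjusted p = 0.0380 by limma) and was the only one to pass. None of the 12 passed with median centring or in the authors' deposited table, while 4 passed with no detection filter. With processed signals 6 passed, and with a trended and robust variance 9 did. The summed signal of the 12 was 38920 and 28900 in the controls and 18610 and 18020 in the RNAs labelled Gata2cKO, and its part in the Foxd3 and Foxp2 values was not tested. All 9 measured markers of macrophages and T cells were also lower on both arrays (median -0.32), with 0 that passed (1 with a trended and robust variance). C1qa was at -0.64 and -0.54 and C1qc at -0.38 and -0.50. Of the T-cell genes in that list, Cd3e was near 0 on array 2 (-0.09 and -0.00922) and Cd3g was not measured.

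**Figure D4:**
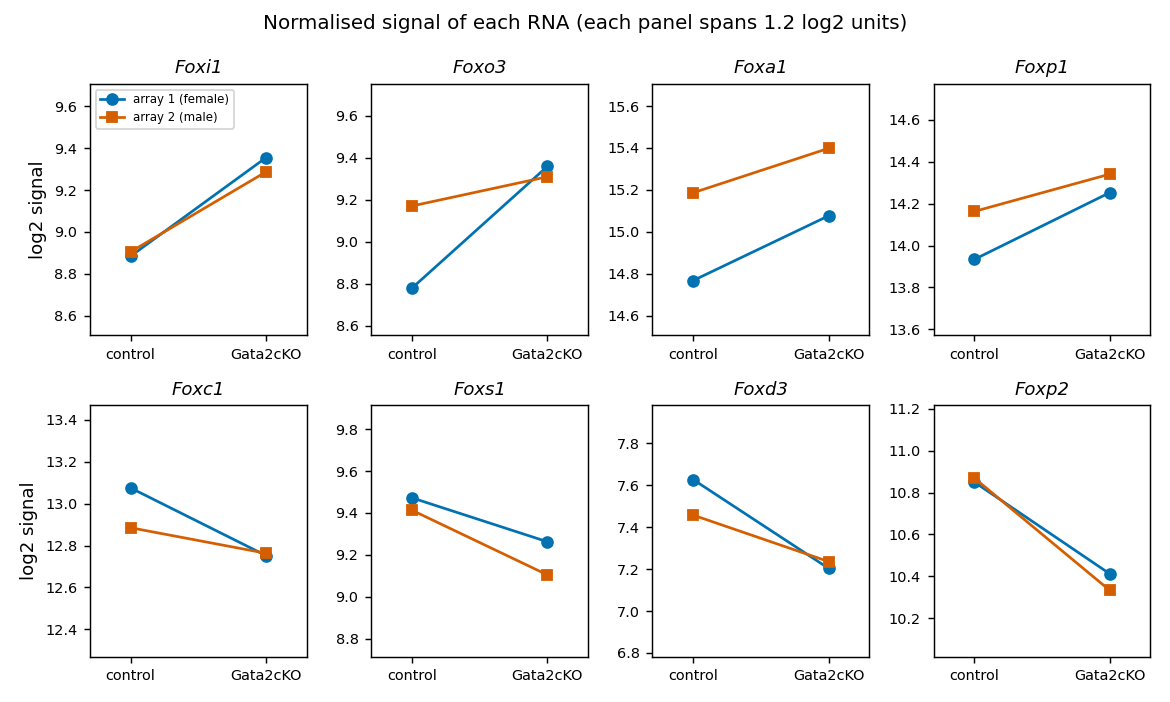
Normalised log2 signal (y axis, the same span in each panel) of 8 forkhead genes in the control and Gata2cKO RNA of array 1 (circles) and array 2 (squares). The 8 shown share a sign on both arrays, so the slopes follow from their choice. Every line of the upper row slopes up and every line of the lower row slopes down. Among the 8 the groups overlap only for Foxa1.

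The FOXO genes were read against the insulin and AKT pathway that controls them. Foxo3, a regulator of stress and survival genes, was at 0.58 and 0.14, with a mean of 0.36 ± 0.312 (SD, n = 2; 95% interval 0.0136 to 0.71; limma adjusted p = 0.677). Its log2 signal was 8.78 and 9.17 in the controls and 9.36 and 9.31 in the RNAs labelled Gata2cKO, so the female control stood apart from the other 3. The authors' deposited table had Foxo3 at -0.31 and -0.06. Foxo1, the FOXO gene of metabolism and vessels, was at 0.06 and -0.13 with 1 probe and 0.18 and 0.06 with another. Foxo6 was at 0.02 and -0.25 with 1 probe, while its other probe was well above background in no RNA. Foxo4 was not well above background. All 37 listed regulators and targets of FOXO proteins were measured and 0 passed. Of these, 9 were higher and 7 lower on both arrays and 21 had opposite signs, with a median of 0.0206 (-0.00556 with median centring). The growth arrest gene Gadd45a was at -0.16 and -0.35, and the cell death gene Bcl2l11 at -0.19 and -0.17.

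Foxm1, which turns on genes for mitosis, was at 0.15 and 0.20 (mean 0.17 ± 0.0342, SD, n = 2; 95% interval -0.0890 to 0.43; limma adjusted p = 0.809). Its log2 signal was 11.96 and 11.92 in the controls and 12.11 and 12.12 in the RNAs labelled Gata2cKO, without overlap, while its other probe gave 0.10 and -0.04. Of 18 listed mitotic targets, 17 were measured and 0 passed. On both arrays 9 were higher and 0 lower, beside 27% and 26.2% of all genes, and 8 had opposite signs. Some of the 9 were near 0 on array 1, such as Ccnb1 (0.000415) and Lin54 (0.00394). The median was 0.11, with 0.0396 on array 1 and 0.18 on array 2. It stayed above 0 in the 9 alternative fits, some of which leave every ratio as it was. The kinetochore gene Cenpf was at 0.31 and 0.15 and the spindle checkpoint gene Bub1 at 0.15 and 0.30.

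Foxj1, the switch for motile cilia, was well above background in both RNAs labelled Gata2cKO and in 1 control RNA, with ratios of 0.06 and -0.20. The authors' deposited table had Foxj1 at -0.50 and -0.70. Of 22 listed genes of the cilium programme, 15 were measured, 6 were higher and 3 lower on both arrays, and 0 passed. The median was 0.0177. Mcidas, a regulator of multiciliated cells, was at 0.32 and 0.17 and Ccdc113 at 0.41 and 0.13. Foxj3 was at -0.02 and 0.28, and Foxj2 was well above background on array 2 alone and so was not among the 26.

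Foxn2 was at 0.32 and 0.05 and Foxn3, a checkpoint suppressor, at -0.19 and 0.08. The other Foxn3 probe gave -0.16 and -0.06, lower on both arrays. Foxh1, a SMAD partner in the early embryo, was at -0.04 and 0.03. Foxe1, a thyroid factor, was at 0.12 and 0.27 and Foxd4 at 0.07 and -0.25, each well above background in both RNAs labelled Gata2cKO and in 1 control RNA. Foxl2, the ovarian granulosa factor, was at 0.03 and -0.24 with 1 probe, while its other probe was well above background in no RNA. Of 7 listed markers of gonad and steroid-making cells, 5 were measured, 1 of which, Star, was higher on both arrays (0.16 and 0.02) and 0 passed. The 15 genes that were not well above background, for which no ratio is given, included Foxa2, Foxa3, Foxb1, Foxb2, Foxe3, Foxi2, Foxi3, Foxj2, Foxn1, Foxn4, Foxo4, Foxp3, Foxr1 and Foxr2.

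Of the 9 members with opposite signs, the 647 channel was the brighter on each array for 6 and the 555 channel for 3. Among the brightest 25% of all genes the ratios of the arrays correlated at -0.57 across genes, and 7 members lie there: Foxa1, Foxc2 and Foxp1 (higher on both arrays), Foxd1 and Foxp4 (lower on both), and Foxl2 and Foxq1 (opposite). The part of the dyes in these values was not tested.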

How the data were processed

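Per the labels' protocols, total RNA was amplified and coupled to Alexa Fluor 555 or 647. Per the file headers and the submitters' processing notes, the authors read array design 026655 with Agilent Feature Extraction 10.7.3.1 (protocol GE2_107_Sep09; probe coordinates mm9). The deposited intensity values are mean spot signals and median local backgrounds, not normalized, and processed signals that the software had background-subtracted and dye-normalized. The deposited log10 ratio is that of red over green processed signal. The value table that the authors deposited, a score, is a signed fold change whose scale, centring and direction are not given in the sources used here. Each column had a median of 1 and was given the direction in which it correlated positively with the ratios of its array (0.443 and 0.376).

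Background was corrected by normexp (offset 50), and ratios were normalized by loess (span 0.3) with control spots (1224 positive, 153 negative) and outlier spots (255 and 178) given weight 0. The sign of array 2, the dye swap, was reversed. Of 39429 probes, 25658 were kept (well above background on both arrays of a group), and the brightest probe stood for a gene, giving 20507 genes. Gene names were updated by RefSeq accession of GRCm38.p6 (26412 probes matched). Exons are not named, for lack of gene models on mm9 among the sources. Log2 signals per RNA are after loess and Aquantile. The limma package (3.58.1, R 4.3.3) fitted the ratios by lmFit and eBayes, with 0 as the null value, both sides counted and p adjusted by Benjamini-Hochberg over the genes tested. The residual degrees of freedom were 1 and those of the prior 4.68, and the number of arrays limits the precision. All 26 members had a value on both arrays. The code was tested on simulated arrays. Files were read with data.table (1.17.8) and jsonlite (2.0.0), and Python 3.11.15, pandas 2.3.3 and matplotlib 3.10.9 served for sequences and figures.

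The members and gene lists were chosen with earlier results of these data known. Genes named are the members, and from each list those past the threshold or otherwise a pair, chosen by the smaller of the 2 arrays' ratios where both share a sign. A further member is not reported here by name.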

Additional observations from a re-analysis of the deposited data

Results flagged for a closer look

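For 9 members the female array and the male array had opposite signs. The difference of the log2 ratio, array 1 minus array 2, was 0.45 for Foxq1, 0.32 for Foxd4, 0.28 for Foxo6, 0.27 for Foxl2, 0.27 for Foxj1, 0.19 for Foxo1, -0.0738 for Foxh1, -0.28 for Foxn3 and -0.30 for Foxj3. With 1 array per sex these differences were not tested, and 46.8% of all genes had opposite signs. With their other probe Foxo1 and Foxn3 shared a sign between the arrays, higher for Foxo1 and lower for Foxn3.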

How the results depend on the processing

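The family's median stayed between -0.062 and -0.0221 in the 9 alternative fits, of which Aquantile and the trended and robust variance leave every ratio as it was. The count past an adjusted p of 0.05 was 1 with a trended and robust variance (Foxp2, adjusted p = 0.0452 by limma) and 0 otherwise. The count at 1.5-fold was 1 with processed signals (Foxd3, whose Gata2cKO signal was not well above background). With median centring 5 members were higher on both arrays, and with no detection filter, which admits all 41, 14 were lower on both. The count well above background was 22 with the stricter filter. In the authors' deposited table the mean ratio turned for Foxa1 (-0.28), Foxi1 (-0.38), Foxo3 (-0.18), Foxp1 (-0.57), Foxd1 (0.0749), Foxd4 (0.0343), Foxk2 (0.14), Foxn3 (0.0684) and Foxo1 (0.22). Foxo1 also turned over the mean of its probes (0.0407), and Foxh1 with processed signals (0.0481). The other 16 members kept their sign in every fit in which they had a value. The variance, Aquantile and filter settings leave a member's ratio as it was, as does the mean of probes for a gene with 1 kept probe. A sign could turn only in the other fits. The cause of these changes was not tested. On single arrays, with no test, the median was -0.0423 and 0.0443, 12 and 15 members were higher, 14 and 11 lower, and 0 at 1.5-fold. Over all genes the count past the threshold was 18, and it ran from 0 (median centring and the authors' deposited table) to 375 (trended and robust variance), with 173 for processed signals, 54 with no detection filter, 47 for a normexp offset of 0 and 35 for the stricter filter. No paired analysis was possible because there is 1 group of ratios, each already paired within its array.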

Other observations

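Foxl2 was read by 2 probes on chromosome 9 that share 12 bases (98856894 to 98856950 and 98856846 to 98856905, mm9). The first, a probe of 60 bases placed on 57 genomic bases, was well above background in all 4 RNAs and the second in none. Which of them reads Foxl2 was not tested. In total 11 members had more than 1 probe. For 4 of them (Foxe1, Foxl2, Foxo6 and Foxp4) some probes were kept as well above background and others were not.

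Along the chromosomes, 3 pairs of neighbouring members lay within 1000 kb of each other by their probes. Foxq1 and Foxc1, 250.2 kb apart on chromosome 13, had mean log2 ratios of 0.16 and -0.22. Foxj3 and Foxo6, 638 kb apart on chromosome 4, were at 0.13 and -0.12. Foxd2 was at -0.19, and Foxe3, 18.8 kb from it on chromosome 4, was not well above background.

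Promoters (300 bases, GRCm38.p6, from RefSeq) were found for 27 of the 41 members, 15 of them measured. GATA motifs (the letters AGATAA and also AGATAG and also TGATAA and also TGATAG, on either strand, where matches may overlap) were in the promoter of 1 of the 15, Foxd3, beside 29.8% of all 32851 promoters of that length. The Foxd3 match, shown as the only one among measured members, lies on chr4:99656114-99656141 (plus strand) with the motif in capitals, read as TGATAG on the other strand.
Foxd3 promoter window: tagaaagtaatCTATCAggccagtcctt
Forkhead motifs (TGTTTAC or TGTTTGC on either strand) were in those of 3 of the 15, Foxa1, Foxj3 and Foxp1, beside 8.5% of all promoters. A gene can have several promoters, as Foxp1 has 3, so the counts of genes and the shares of promoters are in different units and were not compared. These matches are letters in a window and not measured sites.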
